A study of Mus musculus with 16 samples.

Results

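Troponin and tropomyosin form the calcium switch of the muscle thin filament, and the transcripts of 10 of their genes were followed in the gastrocnemius of 16 mice. The genes were picked by symbol from a table of 21923 genes. They are the slow skeletal troponins Tnnt1, Tnni1 and Tnnc1, the fast skeletal troponins Tnnt3, Tnni2 and Tnnc2, cardiac troponin T (Tnnt2) and the tropomyosins Tpm1, Tpm2 and Tpm3. All 10 were counted in every library, and all 10 passed the filter on low counts in each comparison.

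The study asked how muscle RNA changes in cancer cachexia and whether blocking exosome release from the tumor alters it. Adult mice were split into 4 groups of 4. NOR mice were injected with PBS and bore no tumor. The tumors of CAC mice were left untreated, and PBS was given to the mice by intraperitoneal injection daily from day 9. AM mice carried the same tumors and were given amiloride, a diuretic used here as an inhibitor of exosome release, at 2 mg/kg daily from day 9. KD mice carried tumors of cells with a knock-down of Rab27a and Rab27b, a pair of small GTPases needed for exosome release, and were given PBS. Replicates 1 and 2 of each group are labelled C57BL/6, where the tumor line is LLC (Lewis lung carcinoma), and replicates 3 and 4 are labelled BALB/c, where it is CT26 (a colon carcinoma line). The effect of the labelled strain thus cannot be told apart from that of the tumor line. Muscle was taken on day 30 from all mice, and no cell type was separated before RNA extraction.

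The libraries held between 35913190 and 61032708 counted reads. Skeletal muscle markers were abundant in all of them, with a summed level of 23047 to 51711 CPM (read counts scaled to library size) over 7 genes. The transcripts did not sort the libraries by their strain labels. Ifi202b, which C57BL/6 mice do not express, was at 2.91 CPM in CAC replicate 4, 2.61 in AM replicate 1, 3.54 in AM replicate 3 and 5.93 in KD replicate 1, and at 0.0734 CPM or less in the other 12 libraries. AM replicate 1 and KD replicate 1 are labelled C57BL/6, and CAC replicate 4 and AM replicate 3 are labelled BALB/c, as are 6 of the 12 without it. Of 13210 genes with a mean of at least 1 CPM, 38 separated these 4 libraries from the other 12 by at least 2-fold, whereas 0 genes separated the 8 libraries labelled C57BL/6 from the 8 labelled BALB/c. That split was chosen after its values were seen. Sex-linked transcripts also differed, since KD replicate 3 held 0 counts of the Y-linked genes Ddx3y, Kdm5d, Uty and Eif2s3y, whereas the other 15 libraries expressed them. The labels' protocol names BALB/c mice of both sexes and male C57BL/6 mice, and the study's methods name male mice, with no sex given per mouse. In lymphocyte transcripts 5 libraries stood apart, among them CAC replicate 4 and KD replicate 3 named above. The summed level of 9 B and T cell markers was 3.11 CPM in NOR replicate 1, 0.94 in CAC replicate 1, 1.5 in CAC replicate 4, 0.67 in KD replicate 2 and 0.558 in KD replicate 3, against 33 to 399 CPM in the other 11. Over all genes tested, AM against CAC had 537 called genes, which became 0 without the 4 libraries with Ifi202b, 18 without the 5 low in lymphocyte transcripts and 517 with all libraries kept and Ifi202b over 1 CPM as a covariate. Leaving libraries out also leaves as few as 2 mice in a group. For CAC against NOR 1386 became 1272 and 398, and for KD against CAC 1 became 0 in both cases. For the 10 genes, values without these libraries stand below beside the full ones for part of the comparisons, and none of the 10 was called in these fits.

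In striated muscle, tropomyosin lies along the actin filament and covers the sites where myosin heads attach. Troponin C binds calcium, troponin I holds the filament in the blocked state, and troponin T anchors the complex to tropomyosin. Each troponin subunit has separate genes for slow and fast fibres, and the proportion of the forms follows the fibre type. The gastrocnemius of the mouse consists mostly of fast fibres. Among the tropomyosins, Tpm1 is the main form of fast fibres, Tpm3 gives the slow skeletal form, and Tpm2 is made in both fibre types. Tpm1, Tpm2 and Tpm3 also give non-muscle and smooth muscle forms by alternative splicing, which counts per gene do not separate.

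The positions are those of GRCm38 (GENCODE M21). Of the slow genes, Tnnt1 lies on chr7:4504570-4516382 (minus strand), Tnni1 on chr1:135779434-135810989 (plus) and Tnnc1 on chr14:31208312-31211729 (plus). Of the fast genes, Tnnt3 lies on chr7:142498836-142516009 (plus), Tnni2 on chr7:142441808-142444410 (plus) and Tnnc2 on chr2:164777161-164779967 (minus). Tnnt2 lies on chr1:135836354-135852260 (plus), Tpm1 on chr9:67022590-67049406 (minus), Tpm2 on chr4:43514711-43523765 (minus) and Tpm3 on chr3:90072649-90100902 (plus). Several troponin genes stand as neighbours. Tnni1 and Tnnt2 are 25.4 kb apart with Lad1 between them, Tnni2 and Tnnt3 are 54.4 kb apart with Lsp1 between them, and Tnnt1 lies 1.92 kb from Tnni3, the cardiac troponin I gene. For 4 members, an overlapping gene or a close copy could take a larger part in the counts. Tnnc2 overlaps Ube2c on the opposite strand and shares 59% of its 769 possible stretches of 31 bases with it. Tpm3 shares 26.9% of its 6195 such stretches with Tpm3-rs7, a related sequence on chromosome 14. Tnnc1 overlaps Nisch, and Tnnt3 overlaps Prr33, on the opposite strand. The other members share at most 1.69% of such stretches with any other gene, among them 9 that Tpm1 and Tpm2 have in common. Whether counting used the strand is not given in the sources used here, so reads of an overlapping pair cannot be told apart.

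The promoters of the 3 slow troponin genes are shown because their transcripts varied together from mouse to mouse, and that of Tnnc2 because it was the fast troponin gene with the lowest levels in CAC muscle relative to NOR. RefSeq (GRCm38.p6) holds promoter entries for 8 of the 10 genes. Each sequence below is the 250 bases before a RefSeq transcript start, 5′ to 3′ on the strand of the gene, with capitals marking matches on either strand to the E-box CANNTG, the MCAT motif CATTCC, the CACC box CCACCC and the letters TATAAA. The windows are chr7:4515976-4516225 (minus) for Tnnt1, chr1:135799171-135799420 (plus) for Tnni1, chr14:31208062-31208311 (plus) for Tnnc1 and chr2:164779735-164779984 (minus) for Tnnc2. The window of Tnnc1 ends at the start of the gene span given above. The starts used for the other 3 lie inside theirs, so that the windows of Tnnt1 and Tnni1 are within the gene span and that of Tnnc2 is for the most part. Of the 250 bases, 29 for Tnnt1, 19 for Tnni1, 0 for Tnnc1 and 107 for Tnnc2 fall in annotated exons. Tnni1 has 2 RefSeq entries, of which the first is shown.
Tnnt1: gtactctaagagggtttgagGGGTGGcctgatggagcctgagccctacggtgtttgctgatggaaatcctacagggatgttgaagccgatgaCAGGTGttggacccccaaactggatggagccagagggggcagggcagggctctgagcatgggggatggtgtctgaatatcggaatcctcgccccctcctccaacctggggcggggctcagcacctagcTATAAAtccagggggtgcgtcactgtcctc
Tnni1: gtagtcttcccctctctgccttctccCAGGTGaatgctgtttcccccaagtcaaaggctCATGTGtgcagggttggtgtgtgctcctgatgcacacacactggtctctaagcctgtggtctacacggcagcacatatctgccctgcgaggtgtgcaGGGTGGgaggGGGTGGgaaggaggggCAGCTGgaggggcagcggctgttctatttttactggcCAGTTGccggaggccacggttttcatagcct
Tnnc1: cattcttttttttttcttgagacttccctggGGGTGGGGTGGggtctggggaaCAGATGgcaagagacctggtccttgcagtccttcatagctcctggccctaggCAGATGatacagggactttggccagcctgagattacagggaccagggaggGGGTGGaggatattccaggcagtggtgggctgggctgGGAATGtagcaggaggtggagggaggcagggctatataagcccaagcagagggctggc
Tnnc2: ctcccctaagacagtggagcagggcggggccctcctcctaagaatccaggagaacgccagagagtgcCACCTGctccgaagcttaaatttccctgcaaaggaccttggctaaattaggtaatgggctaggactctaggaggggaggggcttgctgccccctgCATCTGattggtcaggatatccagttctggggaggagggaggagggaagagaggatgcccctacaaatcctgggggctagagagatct
The window of Tnnt1 held 1 E-box, 1 CACC box and 1 TATAAA. That of Tnni1 held 4 E-boxes and 2 CACC boxes. That of Tnnc1 held 2 E-boxes, 3 CACC boxes, of which 1 pair overlaps, and 1 MCAT motif. That of Tnnc2 held 2 E-boxes and none of the other 3 letter strings. Of 32851 promoter windows of this length, 66.2% held an E-box, 28.1% a CACC box, 12.6% an MCAT motif and 12.4% TATAAA. A match describes the letters in the window and is not a measured binding site.

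The fast genes dominated the level of expression in every group. Per length of transcript, as fragments per kilobase scaled to depth (FPKM), the order in NOR muscle was led by Tnnt3 at 15609 ± 1126 (SD, n = 4) and Tnnc2 at 13920.1 ± 741, whose ranges overlapped. Tpm1 followed at 9657 ± 1021 FPKM and Tnni2 at 7584 ± 974, again with overlapping ranges, and then Tpm2 at 2448 ± 303. The slow forms were far lower. Tpm3 stood at 229.8 ± 33.8 FPKM, Tnnc1 at 217 ± 56.9, Tnnt1 at 214 ± 51.4 and Tnni1 at 113 ± 30.4, each overlapping the next in this order. Tnnt2 was lowest at 3.36 ± 0.396 FPKM, below every value of the other genes. In CAC muscle Tnnt3 stayed first at 14674 ± 2347 FPKM, while Tpm1 stood at 5006 ± 2139.8, behind Tnnc2 at 8552 ± 2063 and Tnni2 at 7263 ± 1349. The neighbours Tnnc2 and Tnni2, and Tnni2 and Tpm1, overlapped there, whereas Tnnt3 and Tnnc2 did not. AM and KD muscle had the order of NOR for the first 5 genes, followed by Tnnt1, Tnnc1, Tpm3, Tnni1 and Tnnt2. Summed over the 10 genes, the share of all FPKM was 7.89 ± 0.561% in NOR against 6.24 ± 1.15% in CAC. It was 6.83 ± 0.763% for AM and 7.16 ± 0.98% for KD mice. In a bulk sample, fewer cells of a type and less RNA per cell cannot be told apart.

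**Figure D1:**
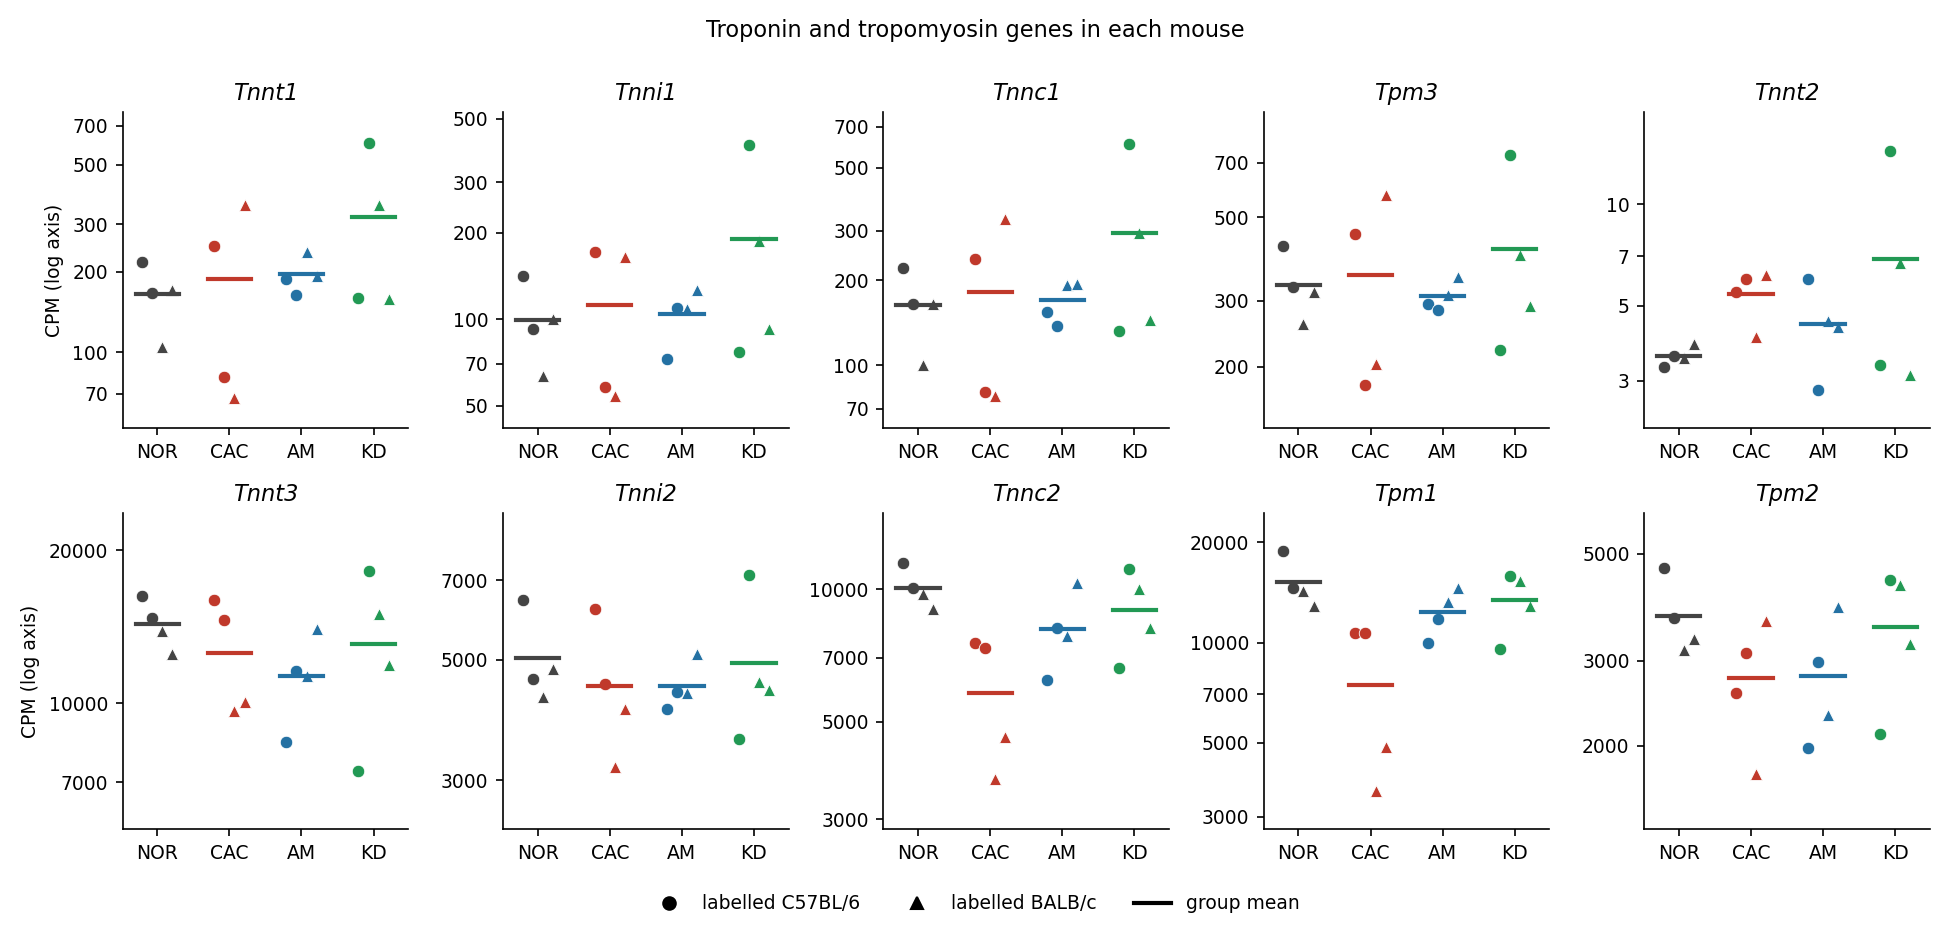
CPM of each of the 10 genes (log axis, 1 panel per gene) in the 4 groups, with 1 point per mouse, the point shape giving the labelled strain and the bar the group mean of 4. All 4 CAC values of Tnnc2 and Tpm1 lie below all 4 NOR values, those of Tnnt2 lie above, and the slow genes spread most widely in CAC and KD.

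CAC against NOR asks what the tumor changes in the muscle. A gene was called at an adjusted p (FDR, edgeR quasi-likelihood test with Benjamini-Hochberg adjustment over all genes tested) below 0.05 with a change of at least 1.5-fold. Of the 10 genes, 1 was called higher, Tnnt2, against 4.32% of all 14666 genes tested, and 0 were called lower, against 5.13%. Tnnt2 was also the 1 gene whose CAC values all lay above those of NOR, where 12.5% of all genes did so. Tnnc2 and Tpm1 were the 2 genes whose CAC values all lay below, where 10.8% of all genes did so. With so few genes in each class, these counts do not set the 10 genes apart from the whole table. At an unadjusted p below 0.05 there were 3 of the 10 genes and 4269 of all genes. The median log2 fold change was -0.05 over the 10 genes and 0.01 over all genes tested. Where nothing else is said, a log2 fold change is followed by its 95% confidence interval. The p-values weigh the difference between groups against the spread between the mice of a group, which takes in both labelled strains.

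The slow troponins showed no called difference between CAC and NOR, and their spread within CAC was wide. Tnnt1, slow troponin T, was at 217, 167, 105 and 171 CPM in NOR replicates 1 to 4 and at 248, 80.8, 67.7 and 353 in CAC. CAC replicates 1 and 4 were thus above all NOR mice and replicates 2 and 3 below all of them. The log2 fold change was 0.17 (-1.01 to 1.35, adjusted p = 0.878 in edgeR). Tnni1, slow troponin I, took the values 141, 92.8, 63.2 and 100.4 CPM in NOR and 171, 57.9, 54.2 and 165 in CAC, with the same pair of CAC mice above and the same pair below. Its log2 fold change was 0.15 (-0.83 to 1.14, adjusted p = 0.861 in edgeR). Tnnc1, the troponin C of slow and cardiac fibres, stood at 221, 165, 100.1 and 165 CPM in NOR and at 237, 80.3, 77.8 and 330.3 in CAC. The pattern of high and low mice was again that of Tnnt1, and the log2 fold change was 0.14 (-0.97 to 1.25, adjusted p = 0.892 in edgeR). The 2 high CAC mice are those with few B and T cell transcripts, and CAC replicate 4 is also a library with Ifi202b.

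With the 5 libraries low in lymphocyte transcripts left out, 3 NOR and 2 CAC mice remained, and the slow genes were lower in CAC. The log2 fold change was then -0.96 for Tnnt1 (SE 0.237, adjusted p = 0.0886 in edgeR), -0.83 for Tnnc1 (adjusted p = 0.12), -0.58 for Tnni1 (adjusted p = 0.175) and -0.62 for Tpm3 (adjusted p = 0.0969). None of these was called. With the libraries that held Ifi202b left out instead, which removed CAC replicate 4, Tnnt1 was at -0.34 (adjusted p = 0.712), Tnni1 at -0.09 (adjusted p = 0.929) and Tnnc1 at -0.32 (adjusted p = 0.709).

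In AM muscle the slow troponins lay in a narrow band. Tnnt1 was at 188, 164, 237 and 193 CPM in AM replicates 1 to 4, Tnni1 at 72.8, 109.8, 109 and 126, and Tnnc1 at 155, 138, 192 and 194. All of these fell within the range of the CAC mice. Against CAC, the log2 fold change was 0.08 for Tnnt1 (-1.03 to 1.18), -0.09 for Tnni1 (-0.99 to 0.80) and -0.08 for Tnnc1 (-1.10 to 0.94). Without the 5 libraries low in lymphocyte transcripts, which left 4 AM and 2 CAC mice, these became 1.38 for Tnnt1 (SE 0.188, adjusted p = 0.0549 in edgeR), 0.88 for Tnni1 (adjusted p = 0.134) and 1.09 for Tnnc1 (adjusted p = 0.0741). Tpm3 went from -0.18 to 0.68 (adjusted p = 0.112). Without the libraries with Ifi202b, Tnnt1, Tnni1 and Tnnc1 were at 0.43, 0.31 and 0.32 (adjusted p = 0.784, 0.836 and 0.831 in edgeR). The size of these differences thus turned on 2 CAC libraries, and none of the genes was called either way.

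KD muscle held the highest slow troponin levels of the study, in 1 mouse. Tnnt1 was at 160.0, 605, 353 and 158 CPM in KD replicates 1 to 4, Tnni1 at 76.8, 406, 187 and 92.4, and Tnnc1 at 132, 606, 295 and 145. KD replicates 2 and 3 were the high mice for each of the 3 genes, and they are the KD libraries low in lymphocyte transcripts. Against CAC the log2 fold change was 0.77 for Tnnt1 (-0.69 to 2.22, adjusted p = 0.725 in edgeR), 0.77 for Tnni1 (-0.63 to 2.16, adjusted p = 0.71) and 0.70 for Tnnc1 (-0.75 to 2.14, adjusted p = 0.761). These intervals reach from a decrease to more than a 4-fold increase, so 4 mice a group do not settle the direction. Without KD replicates 2 and 3 and CAC replicates 1 and 4, Tnnt1 was at 1.07 (adjusted p = 0.171), Tnni1 at 0.57 (adjusted p = 0.275) and Tnnc1 at 0.78 (adjusted p = 0.207). Without the libraries with Ifi202b, CAC replicate 4 and KD replicate 1, they were at 1.51 (adjusted p = 0.541), 1.29 (adjusted p = 0.583) and 1.42 (adjusted p = 0.553). With each mouse left out in turn, Tnnt1 ranged from 0.24 to 1.27, Tnni1 from 0.07 to 1.04 and Tnnc1 from 0.06 to 1.16. Leaving out a single mouse could thus bring the difference from CAC close to none.

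Among the fast troponins, the groups were separate for Tnnc2 and overlapped for Tnnt3 and Tnni2. Tnnc2, fast troponin C, was at 11479, 10053, 9785 and 9009 CPM in NOR and at 7553, 7374, 3705 and 4629 in CAC. All CAC mice were below all NOR mice, with the 2 mice labelled BALB/c lowest. The group means were 10082 ± 1032 CPM for NOR and 5815 ± 1942 for CAC (SD, n = 4), and the log2 fold change was -0.81 (-1.40 to -0.21, SE 0.262). It was not called in edgeR (adjusted p = 0.0769), and it was called in DESeq2 (adjusted p = 0.00552), with total-count scaling (0.033) and with the labelled strain as a covariate (0.0238). These 3 were the only calls among 24 alternatives. Without the libraries low in lymphocyte transcripts the log2 fold change was -0.77 (adjusted p = 0.236 in edgeR). Without those with Ifi202b it was -0.71 (adjusted p = 0.161 in edgeR). Every alternative gave a lower level in CAC, with log2 fold changes between -1.15 and -0.53.

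Tnnt3, fast troponin T, was at 16259, 14748, 13865 and 12523 CPM in NOR and at 15932, 14572, 9661 and 10086 in CAC. Only CAC replicates 3 and 4 were below the NOR range, and the log2 fold change was -0.20 (-0.73 to 0.33, adjusted p = 0.63 in edgeR). Tnni2, fast troponin I, was at 6452, 4602, 4274 and 4797 CPM in NOR and at 6193, 4502, 3170.1 and 4058 in CAC, with the same 2 mice below the NOR range. Its log2 fold change was -0.18 (-0.74 to 0.38, adjusted p = 0.692 in edgeR). The intervals of both genes overlap that of Tnnc2, and the difference between the genes was not tested.

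The fast troponins of AM and KD muscle overlapped those of CAC. Tnnc2 was at 6209, 8181, 7821 and 10346 CPM in AM and at 6614, 11152, 10008 and 8152 in KD. In each group 3 of the 4 mice were above all CAC mice, with replicate 1 within the CAC range. The log2 fold change against CAC was 0.49 in AM (-0.13 to 1.11, adjusted p = 0.348 in edgeR) and 0.62 in KD (-0.09 to 1.33, adjusted p = 0.508). Tnnt3 was at 8393, 11556, 11333 and 13986 CPM in AM and at 7366, 18192, 14982 and 11899.6 in KD, the log2 fold change being -0.15 in AM (-0.70 to 0.40) and 0.06 in KD (-0.72 to 0.83). Without the libraries low in lymphocyte transcripts the KD value of Tnnt3 was -0.36 (adjusted p = 0.833 in edgeR). Tnni2 was at 4063, 4369, 4340.4 and 5118 CPM in AM and at 3573, 7159.8, 4555 and 4401 in KD, with 0.00 in AM (-0.47 to 0.48) and 0.13 in KD (-0.56 to 0.82). Replicate 1 gave the lowest value of its group for each of the 3 fast genes in both AM and KD. Both of these libraries hold Ifi202b. They are also the highest of their groups in summed B and T cell markers, at 399 CPM in AM and 273 in KD.

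Tnnt2, the troponin T of the heart and of developing and regenerating skeletal muscle, was the called gene. It was at 3.29, 3.56, 3.51 and 3.85 CPM in NOR and at 5.48, 6, 4.03 and 6.16 in CAC. All 4 CAC mice were above all NOR mice, with CAC replicate 3 closest to them. The means were 3.55 ± 0.231 and 5.42 ± 0.969 CPM (SD, n = 4), and the log2 fold change was 0.60 (0.23 to 0.98, SE 0.165, adjusted p = 0.0447 in edgeR). The gene is weakly expressed, with 100 to 578 counts a library. The call was lost in 18 of 24 alternatives, including each replicate left out other than CAC replicate 3, while the log2 fold change kept between 0.49 and 0.75. In AM it was at 6.02, 2.82, 4.51 and 4.33 CPM, which overlaps the CAC and NOR ranges (log2 fold change against CAC -0.28, -0.86 to 0.30, adjusted p = 0.579 in edgeR). In KD it was at 3.33, 14.4, 6.68 and 3.12 CPM, with the highest value of the study in replicate 2 (0.34, -0.76 to 1.44, adjusted p = 0.87 in edgeR). Without the libraries low in lymphocyte transcripts, KD replicate 2 among them, this value turned to -0.66 (adjusted p = 0.433 in edgeR), and without those with Ifi202b it was 0.65 (adjusted p = 0.693).

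Markers of other cells moved between NOR and CAC as well. All 5 erythrocyte markers and 4 of 5 neutrophil markers were called higher in CAC, with summed levels of 1002 to 1374 against 3646 to 8714 CPM and of 5.81 to 23.3 against 88.2 to 204 CPM. Of 5 fibroblast markers 2, and of 5 tendon markers 3, were called lower, with summed levels of 2279.8 to 2853 against 801 to 1331 CPM and of 622 to 979.6 against 182 to 439 CPM. Of 6 smooth muscle markers 1 was called higher, Des, which skeletal fibres also make, and 1 lower, Smtn. The summed levels of the 6 were 3331 to 4204 CPM in NOR and 5577 to 8437 in CAC. Des made up most of these sums, at 3039.7 ± 368 CPM in NOR and 6338 ± 1139.5 in CAC (mean and SD). The median log2 fold change of the 6 was 0.07. Of 6 cardiac markers 3 passed the filter and 0 were called in edgeR, where 0 had an unadjusted p below 0.05, or in DESeq2, with summed levels of 17.4 to 33.4 CPM in NOR and 20.2 to 218 in CAC, and Myl7, the atrial light chain, was at 0 in all NOR mice. In AM against CAC 2 of the fibroblast and 3 of the tendon markers were called higher, and Des was called lower. The summed levels of the fibroblast and tendon markers in AM were 1837 to 2541 and 499 to 774 CPM. In a fit with the replicate number as a block, 0 of all genes were called in this comparison. The part of these cells in the levels of the troponin and tropomyosin genes was not tested.

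Of the tropomyosins, Tpm1 differed most between NOR and CAC. Tpm1 was at 18840.1, 14595, 14299.5 and 12863 CPM in NOR and at 10693, 10669, 3573 and 4856 in CAC. All CAC mice were below all NOR mice, and the 2 mice labelled BALB/c were the lowest. The means were 15149 ± 2574 and 7448 ± 3770.1 CPM (SD, n = 4), and the log2 fold change was -1.04 (-1.91 to -0.17, SE 0.379). It was not called in edgeR (adjusted p = 0.107), and it was called in DESeq2 (0.0158) and with the labelled strain as a covariate (0.0247). The direction was the same in every alternative, from -1.66 to -0.64. Without the libraries low in lymphocyte transcripts it was -0.95 (adjusted p = 0.29 in edgeR), and without CAC replicate 4 it was -0.88 (adjusted p = 0.208).

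Tpm1 was at 9999, 11741, 13192 and 14608 CPM in AM and at 9529, 15848, 15308 and 12895 in KD. In both groups 3 of 4 mice were above all CAC mice and replicate 1 was within the CAC range. The log2 fold change against CAC was 0.74 in AM (-0.10 to 1.58, adjusted p = 0.289 in edgeR) and 0.84 in KD (-0.08 to 1.77, adjusted p = 0.49). Both are values against the same 4 CAC mice.

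Tpm2, the tropomyosin of both fibre types, was at 4669.7, 3681, 3163 and 3323 CPM in NOR and at 2575, 3111, 1747 and 3620.4 in CAC. CAC replicate 4 was within the NOR range and the other 3 below it (log2 fold change -0.44, -1.01 to 0.13, adjusted p = 0.289 in edgeR). In AM it was at 1983, 2978, 2316 and 3885 CPM and in KD at 2115, 4409, 4312 and 3256, overlapping CAC in both. Tpm3, the slow tropomyosin gene, was at 418, 325, 260.0 and 317 CPM in NOR and at 450.1, 178, 203 and 573 in CAC, the pattern of the slow troponins (0.08, -0.78 to 0.93, adjusted p = 0.924 in edgeR). It was at 293, 283, 309.9 and 346 CPM in AM and at 221, 734, 397 and 289.9 in KD. Against CAC the log2 fold change of Tpm2 was 0.02 in AM (-0.61 to 0.65) and 0.35 in KD (-0.37 to 1.06), and that of Tpm3 was -0.18 (-0.97 to 0.62) and 0.22 (-0.88 to 1.33). Without the libraries with Ifi202b, Tpm2 was at 0.46 in AM (adjusted p = 0.537 in edgeR) and 0.70 in KD (adjusted p = 0.531), and Tpm3 at 0.78 in KD (adjusted p = 0.616). The KD value of Tpm3 turned to -0.23 without KD replicate 2 and to -0.20 among mice labelled BALB/c alone.

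AM against CAC and KD against CAC ask whether either way of blocking exosome release alters the cachectic muscle. Of the 10 genes 0 were called higher in AM, against 1.63% of 14674 genes tested, and 0 lower, against 2.03%. The values of 0 genes lay all above or all below those of CAC, where 6.05% and 9.27% of all genes did so. In KD 0 were called higher, as for all genes (0%), and 0 lower, against 0.00685%, and 0 genes had separate values, where 3.71% of all genes were above and 3.58% below. At an unadjusted p below 0.05 there were 0 of the 10 genes in both comparisons, and 3186 and 1627 of all genes. DESeq2 and limma-voom also called 0 of the 10. The median log2 fold change was -0.04 over the 10 genes in AM and 0.48 in KD, beside 0.01 and 0.00 over all genes. The confidence intervals above are wide for most of the genes and narrowest for Tnni2 in AM (-0.47 to 0.48), so a missed threshold does not show that the levels were equal.

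**Figure D2:**
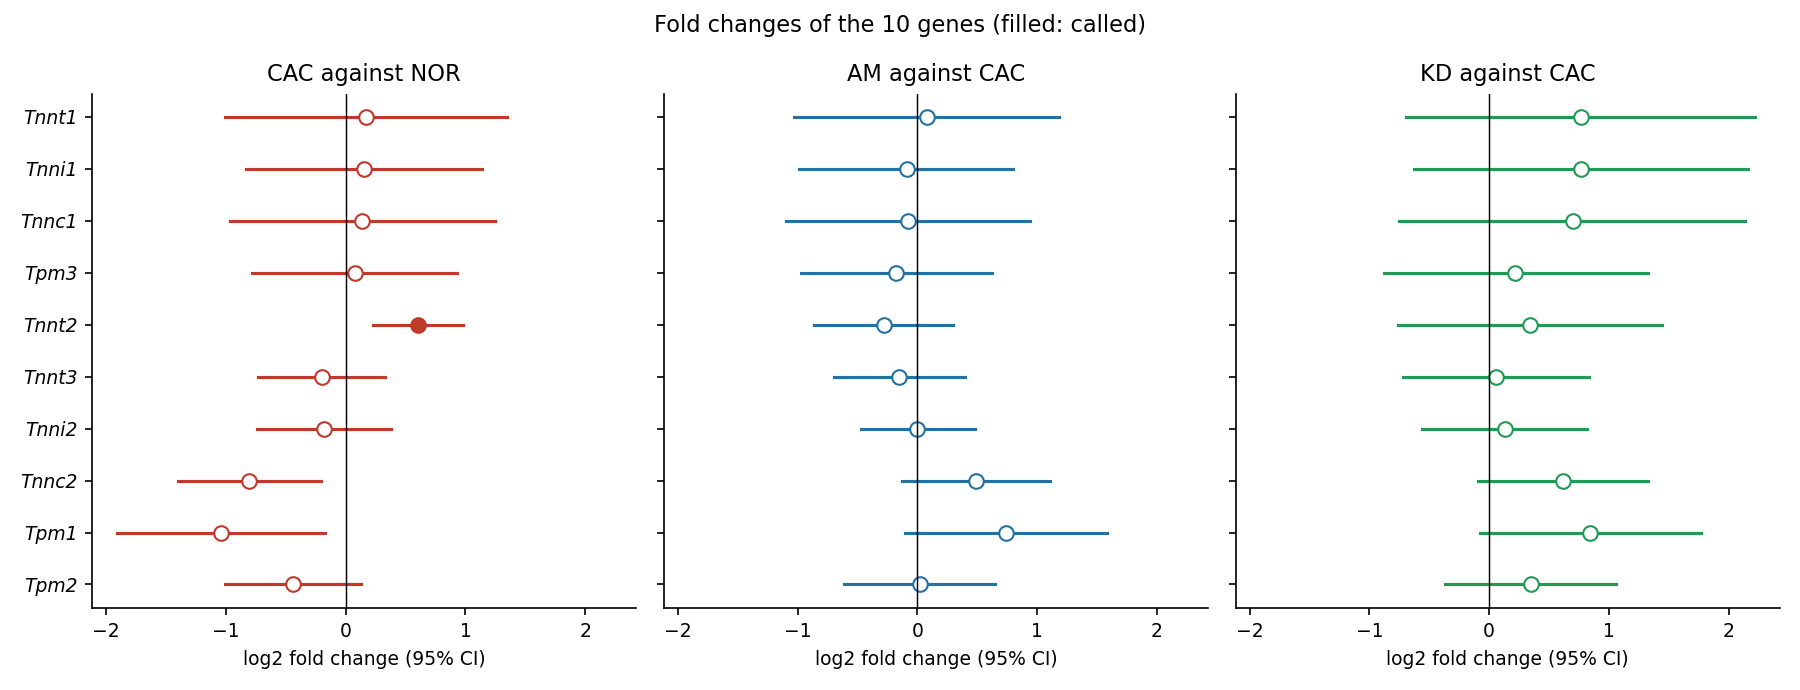
Log2 fold change of each of the 10 genes (rows) with its 95% confidence interval, for CAC against NOR, AM against CAC and KD against CAC, n = 4 mice a group. The filled point is Tnnt2 in CAC against NOR (0.60). Tpm1 and Tnnc2 lie at -1.04 and -0.81 there and at 0.74 and 0.49 in AM against CAC, without being called.

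The remaining comparisons showed no called gene. AM against NOR, KD against NOR and AM against KD each called 0 of the 10 genes, and each called 0 of all genes tested (0%). At an unadjusted p below 0.05 there were 0 of the 10 genes in each, and 1354, 522 and 163 of all genes. The median log2 fold change of the 10 genes was -0.13, 0.14 and -0.37, beside 0.02, 0.02 and -0.00 over all genes. In AM against NOR the log2 fold change was -0.31 for Tnnc2 (-0.71 to 0.10) and -0.29 for Tpm1 (-0.71 to 0.13). In KD against NOR the value was 0.95 for Tnnt1 (-0.08 to 1.98), 0.94 for Tnni1 (-0.25 to 2.13), 0.86 for Tnnc1 (-0.27 to 1.98), 0.32 for Tpm3 (-0.50 to 1.13) and 0.95 for Tnnt2 (-0.12 to 2.03), all with adjusted p = 0.999 in edgeR. KD replicate 2 was above the NOR range for all 5 of these genes, and replicate 3 for all but Tpm3, while replicates 1 and 4 were within it or below. Without KD replicate 2, Tpm3 turned to -0.13. With each mouse left out in turn, Tnnt1 ranged from 0.43 to 1.18, Tnni1 from 0.25 to 1.20 and Tnnc1 from 0.22 to 1.10. In AM against KD Tnnt1, Tnni1, Tnnc1 and Tnnt2 were at -0.70, -0.87, -0.79 and -0.62, with adjusted p = 1 in edgeR. The value of Tnnt2 rested on KD replicate 2, without which it was 0.03. Those of the slow troponins also changed in size with single mice left out. Tnnt1 then ranged from -0.93 to -0.19, Tnni1 from -1.13 to -0.19 and Tnnc1 from -1.03 to -0.17.

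The slow form took a small share of each gene pair. In NOR, Tnnt1 was 1.35 ± 0.324% of the summed FPKM of Tnnt1 and Tnnt3, Tnni1 was 1.45 ± 0.233% of Tnni1 and Tnni2, Tnnc1 was 1.53 ± 0.384% of Tnnc1 and Tnnc2, and Tpm3 was 2.33 ± 0.279% of Tpm3 and Tpm1 (SD, n = 4). Shares in CAC were 1.83 ± 1.54%, 1.81 ± 0.899%, 3.12 ± 2.37% and 5.87 ± 4.07%. The spread in CAC exceeded the difference of the means for all 4 pairs. Without CAC replicate 4 the means were 1.11, 1.42, 2 and 4.01%, of which the first 2 are below those of NOR. The Tpm3 share was 4.4, 1.79, 5.85 and 11.4% in CAC replicates 1 to 4, so that 3 of the 4 were above the NOR range of 1.95 to 2.62%. In replicate 3 the high Tpm3 share went with a low Tpm1 level, at 3573 CPM, and a Tpm3 level of 203 CPM, below the NOR mice. In replicate 4 both differed, with Tpm3 at 573 CPM and Tpm1 at 4856. The shares in AM were 2.08 ± 0.51%, 1.72 ± 0.257%, 2.02 ± 0.379% and 2.67 ± 0.287%, and those in KD 2.67 ± 0.929%, 2.57 ± 1.23%, 2.85 ± 1.51% and 3.11 ± 1.15%. These shares describe the mice, and no test was run on them.

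**Figure D3:**
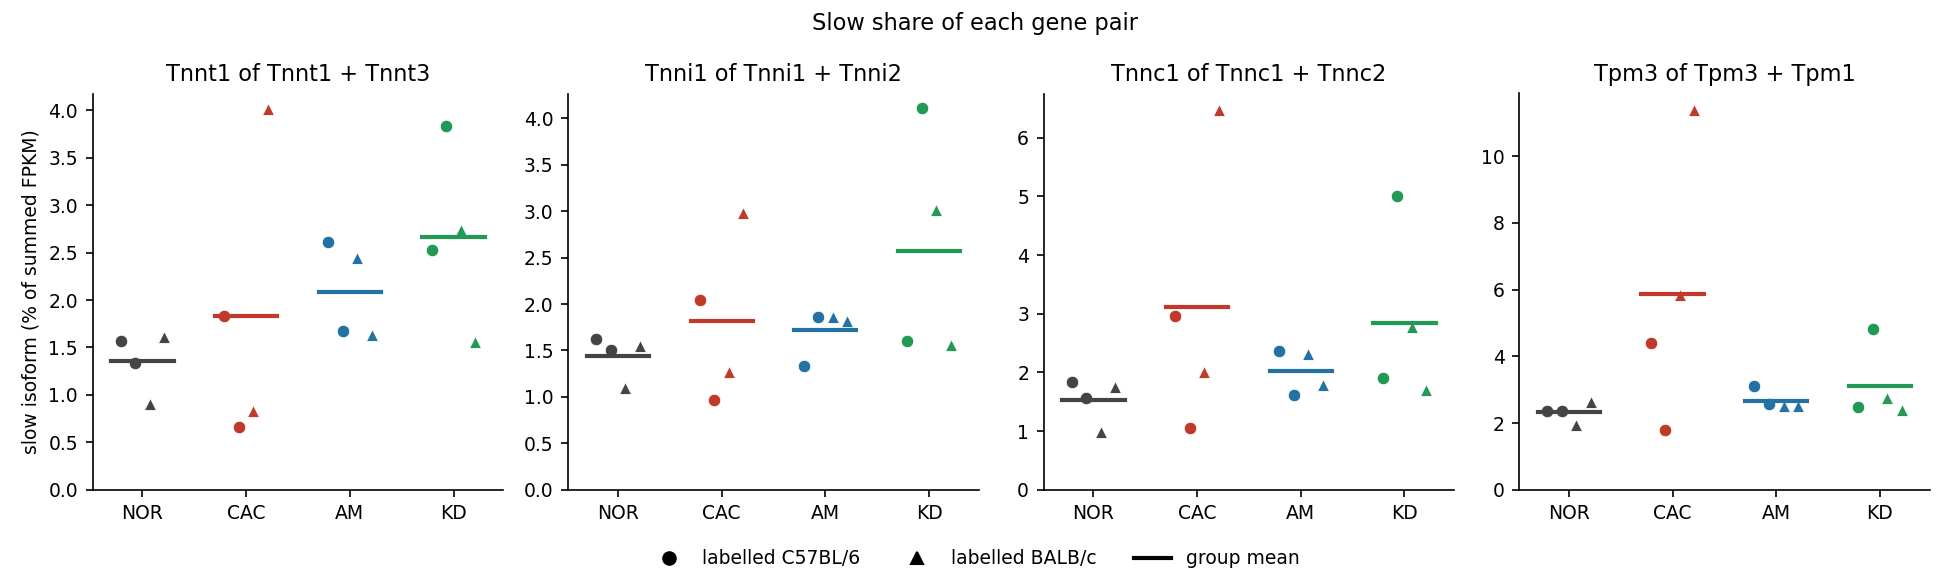
Slow form as a percent of the summed FPKM of each slow and fast pair (1 panel per pair, axis from 0), in the 4 groups, with 1 point per mouse, shaped by labelled strain, and the bar at the group mean of 4. The shares lie between 0.659% and 11.4%, and the highest point is Tpm3 in CAC replicate 4.

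The genes fell into sets that moved together over the 16 mice. Correlations are given on log2 CPM as a description. They join mice of 4 groups and share the scaling of each library. Tnnt1 and Tnnc1 were correlated at Pearson's r = 0.98 (Spearman's rho = 0.97), with r = 0.98 after the 2 mice farthest from the median were left out and 0.99 after group means were removed. The corresponding r was 0.94 for Tnnt1 and Tnni1 (rho = 0.91) and 0.97 for Tnni1 and Tnnc1 (rho = 0.94). Tpm3 went with all 3 slow troponins, at r = 0.92 with Tnnt1, 0.93 with Tnni1 and 0.96 with Tnnc1. Between the fast genes, Tnnc2 was closest to Tpm1 (r = 0.97, rho = 0.96, 0.95 with group means removed), and Tnnt3 was closest to Tnni2 (r = 0.82, rho = 0.90). With group means removed Tnnt3 was closer to Tnnc2 (0.92) than to Tnni2 (0.82). Between slow and fast forms of a subunit, r was 0.32 for Tnnt1 with Tnnt3 (0.44 with group means removed, -0.03 without the 2 farthest mice), 0.75 for Tnni1 with Tnni2 (0.81 and 0.49) and 0.37 for Tnnc1 with Tnnc2 (0.41 and -0.10). Tnnc2 and Tpm1 are on different chromosomes and share none of the counted 31-base stretches with each other, whereas the levels of Tnnc2 may include reads of Ube2c, which was at 0.34 to 0.506% of Tnnc2's CPM.

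**Figure D4:**
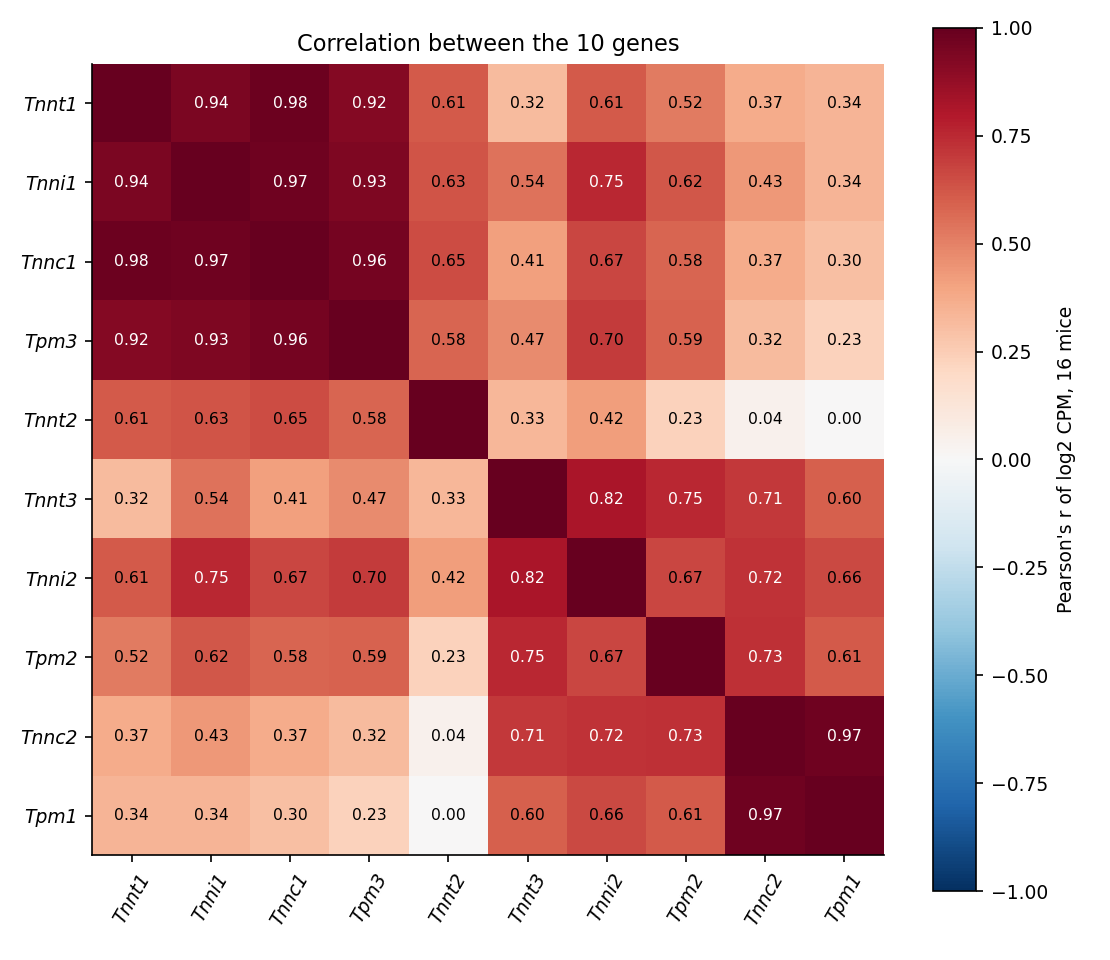
Pearson's r of log2 CPM over 16 mice for each pair of the 10 genes, shown as color from -1 to 1. The block of Tnnt1, Tnni1, Tnnc1 and Tpm3 has r of 0.92 to 0.98, and the pair Tnnc2 and Tpm1 has 0.97.

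Outside the 10 genes, the 5 most like the mean of the 3 slow troponins held 3 of the slow fibre list described below. Among 13200 genes with a mean of at least 1 CPM, the 5 were Atp2a2 (r = 0.96), the calcium pump of slow and cardiac fibres, Myl2 (0.95), the slow regulatory light chain, Vamp5 (0.92), a vesicle protein of muscle, Myh7 (0.92), the slow myosin heavy chain, and Rp1 (0.88). With group means removed r was 0.97, 0.95, 0.94, 0.91 and 0.90. The genes most like the mean of the 3 fast troponins were Nenf (r = 0.94), Capzb (0.94), the capping protein of the thin filament, Bin1 (0.93), a protein of the T tubules, Tpgs1 (0.93) and Tcea3 (0.93). None of these is on the fast fibre list described below.

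The slow genes were inversely related to lymphocyte transcripts. The r of log2 CPM with the summed 9 B and T cell markers was -0.84 for Tnni1 (rho = -0.86, -0.79 without the 2 farthest mice, -0.89 with group means removed), -0.80 for Tnnc1, -0.80 for Tpm3 and -0.77 for Tnnt1. It was weaker for the other genes, with -0.62 for Tnni2, -0.57 for Tnnt2, -0.53 for Tnnt3 and Tpm2, -0.21 for Tnnc2 and -0.15 for Tpm1. With group means removed it was -0.88 for Tnnt1, -0.86 for Tnnc1 and -0.84 for Tpm3, and between -0.73 and -0.49 for the other 6, with -0.54 for Tnnc2 and -0.49 for Tpm1. The markers themselves spread within each group. In each of the 3 comparisons with CAC, 0 of the 9 were called in edgeR, DESeq2 and limma-voom, and 0 had an unadjusted p below 0.05. The part of these cells, or of the piece of muscle sampled, in the troponin levels was not tested.

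**Figure D5:**
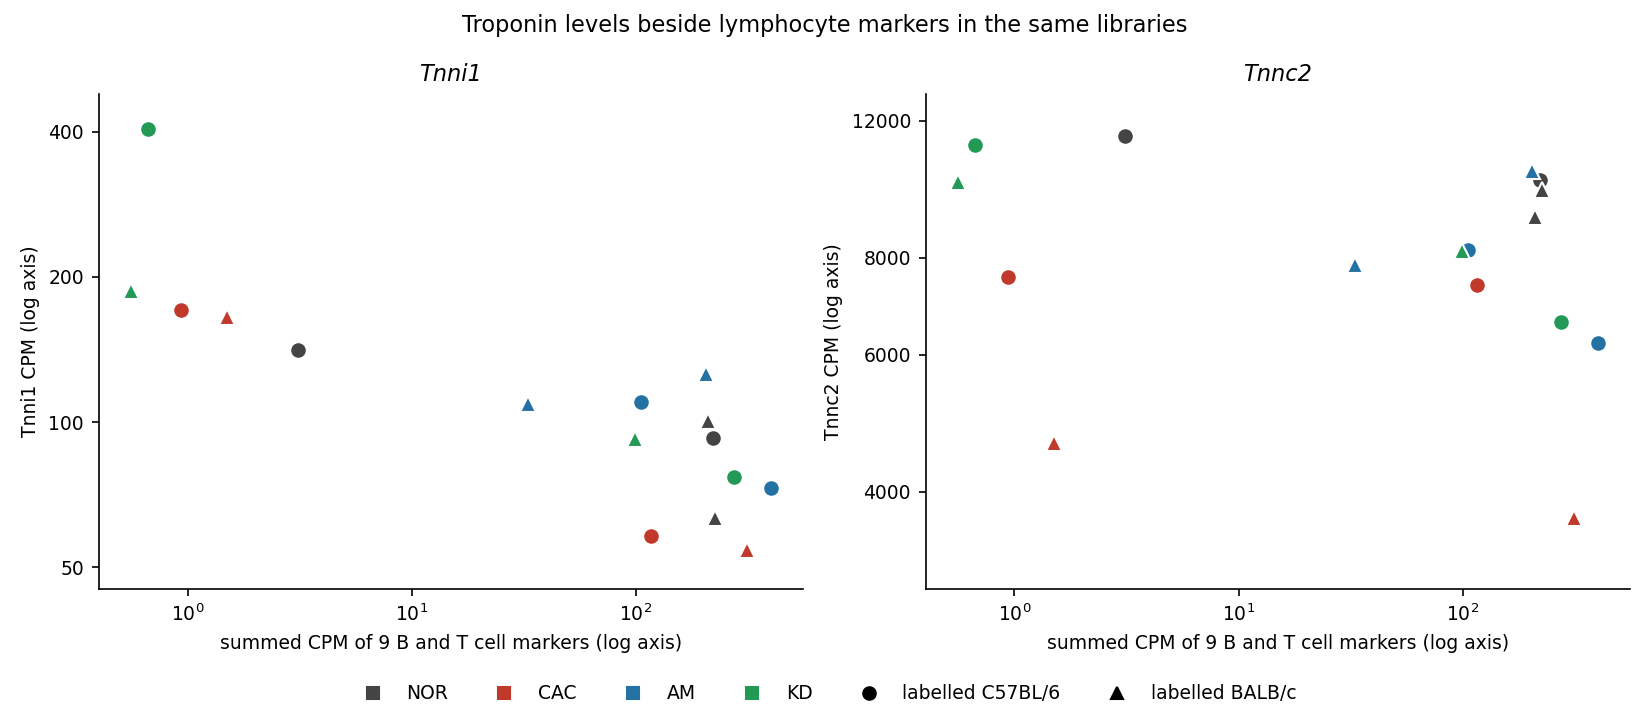
CPM of Tnni1 and of Tnnc2 against the summed CPM of 9 B and T cell markers in the same library (both axes log), 1 point per mouse, colored by group and shaped by labelled strain. Tnni1 is highest in the libraries low in the markers (r = -0.84, and -0.89 with group means removed), and Tnnc2 is less closely related to them (r = -0.21 and -0.54).

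The other genes of the thin filament and of fibre type were followed as lists. Of 23 further thin filament genes, 2 rose and 3 fell in CAC against NOR, and the median log2 fold change was -0.06. Of all genes, 4.32% were called higher and 5.13% lower in this comparison, and with lists this short the counts given here and below are not set apart from those shares. Actc1, the cardiac form of actin that is also made in immature skeletal muscle, fell from 728 ± 479 to 17.9 ± 13.1 CPM (log2 fold change -5.38, SE 0.749, adjusted p = 0.00476 in edgeR). Kbtbd13, an adaptor of a ubiquitin ligase in muscle, fell from 31.1 ± 11 to 11.3 ± 4.18 CPM (-1.48, SE 0.345, adjusted p = 0.0264 in edgeR). Lmod2, which governs thin filament length, rose from 159.6 ± 36.1 to 380.2 ± 99.1 CPM (1.25, SE 0.225, adjusted p = 0.0117 in edgeR). Nrap, an actin-binding protein of myofibril assembly, rose from 1468 ± 332 to 2978 ± 196 CPM (1.01, SE 0.192, adjusted p = 0.0137 in edgeR). In AM against CAC, where 2.03% of all genes fell and 1.63% rose, 2 of the 23 fell, Lmod2 to 135 ± 24.3 CPM (-1.49, adjusted p = 0.00937 in edgeR) and Nrap to 1498 ± 96.2 CPM (-0.99, adjusted p = 0.00826 in edgeR).

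Of 11 fast fibre genes, 2 fell in CAC, with a median of -0.65. Casq1, the calcium store protein of fast fibres, fell from 3572 ± 768 to 752 ± 365 CPM (log2 fold change -2.26, SE 0.373, adjusted p = 0.00858 in edgeR), and in AM against CAC it rose to 2472 ± 883 CPM (1.72, SE 0.402, adjusted p = 0.0484 in edgeR). Myl1, the fast essential light chain, fell from 7502 ± 845 to 2181 ± 1307 CPM (-1.80, SE 0.422, adjusted p = 0.0273 in edgeR). Of 11 slow fibre genes 0 were called in any of the 3 comparisons in edgeR, with medians of 0.10, 0.12 and 0.66 for CAC against NOR, AM against CAC and KD against CAC, and 1 of them had an unadjusted p below 0.05 in each. These medians were -0.39, 0.65 and 0.59 without the libraries low in lymphocyte transcripts, and -0.23, 0.39 and 1.24 without those with Ifi202b. DESeq2 called 1 of the 11 in CAC against NOR. Of 9 genes of developing muscle 7 passed the filter in CAC against NOR, and Myog, a factor of muscle differentiation, rose from 5.9 ± 0.949 to 13.8 ± 6.22 CPM (1.22, SE 0.302, adjusted p = 0.0323 in edgeR).

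Of 15 regulators of fibre type 1 fell in CAC, Mef2c, a transcription factor of muscle genes, from 125 ± 17.5 to 73.3 ± 20.2 CPM (log2 fold change -0.78, SE 0.2, adjusted p = 0.0361 in edgeR). Of 7 splicing regulators 1 rose, Rbm20, which governs the splicing of sarcomere transcripts, from 64 ± 5.09 to 98.3 ± 11.9 CPM (0.61, SE 0.114, adjusted p = 0.0127 in edgeR), and it fell in AM against CAC to 54.9 ± 6.21 CPM (-0.84, SE 0.122, adjusted p = 0.0111 in edgeR). In KD against CAC 0 of 76 genes of the 6 lists were called in edgeR and in limma-voom, 5 in DESeq2, and 11 had an unadjusted p below 0.05 in edgeR.

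The calls of these lists were also refitted without the libraries that stood apart, where fewer mice remain. In AM against CAC the calls of Lmod2, Nrap, Casq1 and Rbm20 were lost without the libraries with Ifi202b (adjusted p = 0.115, 0.137, 0.204 and 0.115 in edgeR, with log2 fold changes of -1.26, -0.99, 1.81 and -0.98) and without those low in lymphocyte transcripts (adjusted p = 0.0638, 0.0741, 0.213 and 0.0711, with log2 fold changes of -1.20, -0.99, 1.71 and -0.83). The fold changes were thus about as large as with all mice. In a fit of all mice with the replicate number as a block, 0 of all genes were called in AM against CAC, so these calls were lost there too. In CAC against NOR, Actc1, Nrap and Rbm20 were still called without the libraries low in lymphocyte transcripts (adjusted p = 0.0382, 0.0336 and 0.0373 in edgeR). Kbtbd13, Lmod2, Casq1, Myl1, Myog and Mef2c were not, at adjusted p = 0.128, 0.0831, 0.0838, 0.142, 0.0804 and 0.209, with log2 fold changes of -1.31, 1.02, -2.08, -1.58, 1.08 and -0.71 that were about as large as before. Without CAC replicate 4, which holds Ifi202b, Mef2c alone of these 9 genes was not called (log2 fold change -0.73, adjusted p = 0.0787 in edgeR).

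The 2 labelled strains were compared in the same contrasts, bearing in mind that transcripts did not sort the libraries by these labels and that the tumor line changes with the label. The difference of effects between the labels was called for 0 of the 10 genes and for 0% of all genes in each of the 3 contrasts, while 717, 1821 and 825 of all genes had an unadjusted p below 0.05. Tpm1 had the largest difference in AM against CAC, with a log2 fold change of 0.02 among mice labelled C57BL/6 and 1.74 among those labelled BALB/c. The difference was -1.67 (-2.37 to -0.96, adjusted p = 0.263 in edgeR). In CAC against NOR Tpm1 was at -0.63 and -1.70, and in KD against CAC at 0.20 and 1.75, with adjusted p = 0.998 and 0.854 for the difference in edgeR. Tnnc2 followed Tpm1, at -0.53 and -1.18 in CAC against NOR, -0.07 and 1.12 in AM against CAC and 0.20 and 1.13 in KD against CAC. In the mice labelled BALB/c, both AM and both KD mice were above both CAC mice for these 2 genes, whereas in those labelled C57BL/6 they overlapped.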

How the data were processed

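Poly(A) RNA of the gastrocnemius was captured with oligo(dT) and sequenced on a HiSeq2500, 4 libraries in each of the groups NOR, CAC, AM and KD. The deposited table holds, for each library, the raw read count per gene and the FPKM that the authors computed from the same counts. The implied gene length differed by at most 0.0459% between libraries over 2467 genes. The submitters' processing notes name fastp, Bowtie2, HISAT2 and StringTie 1.3.1. The builds named there are mm9 and GRCm38, and the counting tool and its strand setting are not given in the sources used here.

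Counts were tested per comparison on the 8 libraries of its 2 groups with edgeR 4.0.16 (quasi-likelihood, TMM scaling, genes kept at the CPM of 10 counts in as many libraries as the smaller group holds and 15 counts in total), with calls at an FDR below 0.05 and a change of at least 1.5-fold. CPM used TMM library sizes with no prior count, and correlations used log2 CPM with a prior count of 2. The fold limit is that of the study, whose test, NOISeq, was not run. Alternatives changed the fold limit, the scaling, the filter, the tool, the unit, the samples, the strain covariate and the replicate block. DESeq2 1.42.0 and limma 3.58.1 served as alternatives, in R 4.3.3. Summaries were computed in Python 3.11.15 (pandas 2.3.3, numpy 2.4.6, scipy 1.17.1) and plotted with matplotlib 3.10.9. The steps were tested on simulated data.

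Groups and replicate numbers come from the sample labels. The mice of a group are separate animals. All 10 genes are named. Of each pathway list, up to 2 called genes with the largest rise and 2 with the largest fall in CAC against NOR are named, and the 5 genes most like the slow and fast troponins by Pearson's r. The members and lists were chosen with earlier results of these data known. Depth per library ranged from 35913190 to 61032708 counts. Intervals are those of the fits and take in the spread between the 4 mice of a group.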

Additional observations from a re-analysis of the deposited data

Results flagged for a closer look

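In AM against CAC, Tnnt3 and Tnni2 moved in opposite ways in the 2 labelled strains, with all mice of a label on the same side. The log2 fold change of Tnnt3 was -0.63 among mice labelled C57BL/6 and 0.35 among those labelled BALB/c, and that of Tnni2 was -0.33 and 0.39. The difference was tested as an interaction in edgeR and was not called, at -0.94 for Tnnt3 (adjusted p = 0.355) and -0.70 for Tnni2 (adjusted p = 0.429). AM replicate 1, labelled C57BL/6, and AM replicate 3 and CAC replicate 4, labelled BALB/c, are the libraries with Ifi202b in this comparison.

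Of 56 groups of 4 values examined by Dixon's criterion, 3 held a mouse far from the others, where chance gives about 1 in 20. The Tnni1 share of Tnni1 and Tnni2 was 1.33% in AM replicate 1, below the other 3 AM mice. The Tpm3 share of Tpm3 and Tpm1 was 3.1% in the same mouse, above the other 3. In KD replicate 2, whose library is low in B and T cell markers, the Tpm3 share was 4.81%, above the other 3 KD mice.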

How the results depend on the processing

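In CAC against NOR 1 of the 10 genes was called. The number was 0 with a fold limit of 2, upper-quartile scaling, limma-voom, limma on log2(FPKM + 1), no count filter, all 16 libraries in 1 fit, and each labelled strain alone. It was 2 with total-count scaling and with the labelled strain as a covariate, and 3 with DESeq2. Leaving out each mouse in turn gave 0 to 1, with 1 only without CAC replicate 3. With the libraries under 10 CPM of B and T cell markers left out it was 0, and with those over 1 CPM of Ifi202b left out it was 0, both chosen after seeing the data. In the other 5 comparisons 0 of the 10 genes were called under every alternative run.

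The numbers of the replicates were checked for pairing, and the correlation of deviations from the group means was not above 0.1 for every number in any pair of groups (0.68, 0.18, 0.41 and -0.24 for NOR and CAC, -0.43, 0.07, -0.56 and -0.35 for CAC and AM). Mice of the same number share the labelled strain and tumor line, and nothing else is stated that would pair them. In the fit with the number as a replicate block, 0 of the 10 genes were called in CAC against NOR, and Tnnt2 was at 0.59 (adjusted p = 0.0943 in edgeR). Of 4 mice, 2 in NOR and CAC and 0 in CAC and AM correlated best with their own number.

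Over 1730 refitted values of the 10 genes, 18 lost a call, all of Tnnt2, and 5 gained one, of Tnnc2 or Tpm1. No called value changed direction, while 142 uncalled values changed sign. With CPM in place of FPKM, the Tnni1 share was higher in all 4 groups, at 1.91% in NOR (1.45% by FPKM), 2.26% in AM (1.72%), 2.38% in CAC (1.81%) and 3.37% in KD (2.57%). Over all genes, the number called was 1386, 537 and 1 in CAC against NOR, AM against CAC and KD against CAC, and ranged from 0 with BALB/c labels alone to 2048 without a fold limit, from 0 with the replicate block to 1119 with DESeq2, and from 0 to 340 with DESeq2. DESeq2 called 70, 31 and 1 genes in AM against NOR, KD against NOR and AM against KD, where edgeR called 0. The causes were not tested. Depth was not varied, and Tnnt2 had the fewest counts of the 10 genes, at 100 to 578 a library.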

Other observations

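Tpm3-rs7, the related sequence that shares 78.6% of its 31-base stretches with Tpm3, was at 11.1 to 87.8 CPM, or 3.77 to 36.8% of Tpm3. Its levels were only weakly related to those of Tpm3 over the 16 mice (r = 0.28, rho = 0.53) and closely to those of Myh6, the alpha cardiac myosin heavy chain (r = 0.94, rho = 0.89). Both were highest in the 4 libraries that hold Ifi202b. Ube2c, a gene of dividing cells that overlaps Tnnc2, followed it closely (r = 0.95, rho = 0.91), at 18.8 to 45.9 CPM, or 0.34 to 0.506% of Tnnc2. Where the genes overlap, reads of Tnnc2 may be counted for Ube2c and the reverse, so this likeness need not be that of separate transcripts. Nisch, which overlaps Tnnc1, did not follow it (r = 0.06, rho = 0.13), at 129 to 197 CPM.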
